A study of Mus musculus with 6 samples.

Results

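The genes described here handle the first steps of glucose use in the pancreatic islet: the glucose transporters Slc2a1, Slc2a2, Slc2a3 and Slc2a4, the glucose-6-phosphatase catalytic subunits G6pc2 and G6pc3, and the phosphofructokinase-2 forms Pfkfb2 and Pfkfb3. They were chosen by name as 8 rows of a deposited count table of 24421 genes, and all 8 passed the filter on low counts that left 13736 genes for testing. RNA was sequenced from islets isolated from C57BL/6J mice, in 3 libraries with a control label and 3 with a knockout label. The knockout is of Dhps in β cells, and Dhps encodes the hypusine-forming enzyme deoxyhypusine synthase. The knockout genotype was given as C57.DhpsloxP.MIP1-CreERT, that is, a floxed Dhps allele and a Cre that tamoxifen activates and that an insulin promoter restricts to β cells, so that the other islet cells keep their Dhps. The labels did not state the Cre status of the controls, the tamoxifen schedule, the age of the animals, the meaning of the prefix HF in the sample names, or whether the replicates were separate animals. The p-values therefore reflect only how far these libraries scatter, which may be technical.

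In rodent β cells glucose enters mainly through GLUT2, the high-capacity, low-affinity transporter encoded by Slc2a2, so that glucose inside the cell follows glucose in the blood. Trapping of glucose as glucose-6-phosphate then sets the rate of glycolysis and of insulin release, and the islet enzyme encoded by G6pc2 works against that step by removing the phosphate again. Phosphofructokinase-2 enzymes make and break down a regulatory sugar phosphate that switches on phosphofructokinase-1, the next control point of glycolysis.

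The libraries held 21027737 to 23249895 counts assigned to genes, with 15954 to 16370 genes detected. Dhps itself overlapped between the labels: it was at 12.6 ± 0.704 CPM (a gene's share of a library's counts, scaled with TMM factors) in controls and 11.96 ± 0.689 CPM in knockout-labelled libraries (SD, n = 3 per label; adjusted p = 0.742), so directions below refer to labels. These counts cover the whole gene and all islet cells, so they check a deletion of some exons in β cells only in part. Islet hormone transcripts were abundant in both groups. A β cell reference of 7 genes (Ins1, Ins2, Iapp, Pcsk1, Abcc8, Chga and Scg2) summed to between 382279 and 511149 CPM in controls. In knockout-labelled libraries it summed to between 407317 and 468535 CPM. Most of this sum came from Ins1 and Ins2, at 91075 and 306578 CPM on average in controls. None of the 7 was called or at an unadjusted p under 0.05 by edgeR (1 at that level by DESeq2). The 11 acinar markers summed to 906 to 10274 CPM in the controls, with the lowest value in control 3, and to 24586 to 28038 CPM in knockout-labelled libraries, although edgeR called 0 of the 10 tested (9 at an unadjusted p under 0.05; limma-voom called 1 and DESeq2 0). The 7 macrophage markers summed to 137 to 143 CPM in controls against 232 to 306 CPM (4 called higher). The 6 endothelial markers summed to 260 to 354 against 375 to 443 CPM (3 called higher), and the 7 stellate cell and fibroblast markers to 69.8 to 293 against 296 to 408 CPM (3 called higher). The 4 delta and PP cell markers summed to 7168 to 14642 against 17472 to 20353 CPM (Pyy and Hhex called higher), and the 5 duct markers to 241 to 296 against 350 to 535 CPM (Spp1 called higher). The summed alpha cell markers overlapped, with 0 of 5 called, as did the lymphocyte markers, of which edgeR called Cd4 higher and 5 of 6 had an unadjusted p under 0.05. The part of these cells in the results below was not tested, beyond the fits with a score as covariate that are named there. In islet tissue as a whole, fewer cells of a type and less RNA per cell cannot be told apart.

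The 250 bases upstream of the transcription start are shown for the 3 members whose counts differed between the labels, Slc2a2, Pfkfb2 and Pfkfb3, and for G6pc2, the most abundant member, which was not called. They come from the RefSeq promoter table (GRCm38.p6, the assembly also called mm10) and run 5′ to 3′ on the strand of the gene, up to the base before the start. The table held promoters for 6 of the 8 members, and Slc2a3 and Slc2a4 had no entry. Pfkfb2 had 3 starts in it, and Pfkfb3 and G6pc2 had 2 each; the first entry of each is shown, which starts an exon of the deposited gene model, and the Pfkfb2 model also has exons further upstream. Capitals mark matches, on either strand, to any of 10 motifs: the E-box CACGTG, the core of the hypoxia element ACGTG (which the E-box contains), the Sp1-type box GGGCGG, the box named CCAAT, the TATA-type box TATAAA, the HNF1 half-site GTTAAT, the forkhead (FOXA) motifs TGTTTAC and also TGTTTGC, the homeobox motif TAATTA and the cyclic AMP element half-site TGACG. The coordinates are chr3:28697653-28697902 (plus strand) for Slc2a2, chr1:130715822-130716071 (minus strand) for Pfkfb2, chr2:11553930-11554179 (minus strand) for Pfkfb3 and chr2:69210823-69211072 (plus strand) for G6pc2.
Slc2a2: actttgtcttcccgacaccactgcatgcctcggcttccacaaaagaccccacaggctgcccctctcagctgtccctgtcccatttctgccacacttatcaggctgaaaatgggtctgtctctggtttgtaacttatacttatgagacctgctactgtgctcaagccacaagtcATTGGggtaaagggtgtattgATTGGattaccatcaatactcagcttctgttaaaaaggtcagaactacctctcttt
Pfkfb2: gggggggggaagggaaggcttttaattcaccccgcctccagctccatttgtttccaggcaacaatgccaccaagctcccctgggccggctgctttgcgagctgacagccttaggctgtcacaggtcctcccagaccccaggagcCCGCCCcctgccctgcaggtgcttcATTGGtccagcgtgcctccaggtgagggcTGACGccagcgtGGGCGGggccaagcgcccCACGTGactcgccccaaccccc
Pfkfb3: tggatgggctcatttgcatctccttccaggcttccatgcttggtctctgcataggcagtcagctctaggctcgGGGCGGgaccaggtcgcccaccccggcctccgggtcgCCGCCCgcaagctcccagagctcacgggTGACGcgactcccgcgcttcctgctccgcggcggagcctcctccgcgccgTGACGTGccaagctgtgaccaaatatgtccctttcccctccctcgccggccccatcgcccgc
G6pc2: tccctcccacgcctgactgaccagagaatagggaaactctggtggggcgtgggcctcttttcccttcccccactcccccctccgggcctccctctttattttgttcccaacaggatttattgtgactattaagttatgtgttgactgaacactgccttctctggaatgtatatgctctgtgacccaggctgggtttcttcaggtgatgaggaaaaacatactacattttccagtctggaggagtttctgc

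The Slc2a2 sequence held 2 CCAAT motifs on the reverse strand, with their leftmost bases at −77 and −56 (−1 being the base before the start), a motif present in 37.4% of 32851 RefSeq promoters of the same 300-base window (250 bases before and 50 after the start). Pfkfb2 held an E-box at −22, a motif of 7.15% of promoters, with a cyclic AMP half-site at −52, a CCAAT on the reverse strand at −81 and Sp1-type boxes at −106 and −40. Pfkfb3 held a hypoxia core at −60, found in 19.6% of promoters, next to a cyclic AMP half-site at −62 (20.8% of promoters), a further half-site at −112 and Sp1-type boxes (35.7% of promoters) at −177 and −140. The upstream sequence of G6pc2 held none of these letters. The GC content of the sequences differed widely, at 47.2% for Slc2a2 and 50% for G6pc2 against 66.8% for Pfkfb2 and 68.4% for Pfkfb3, where the median of all promoters was 52.4%. These matches describe the letters only, and no binding was measured.

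Of the 8 members, 2 were lower and 1 was higher in knockout-labelled libraries, and 5 were not called. Slc2a2 and Pfkfb2 fell and Pfkfb3 rose by edgeR's quasi-likelihood test at an adjusted p under 0.05. Among all tested genes the same test called 6.76%, that is 4.14% of tested genes higher and 2.63% lower. Control and knockout-labelled values lay apart for those 3 members and overlapped for the other 5; they lay apart for 32.1% of all tested genes. The median log2 fold change of the 8 members was 0.08, beside 0.01 over all tested genes.

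**Figure D1:**
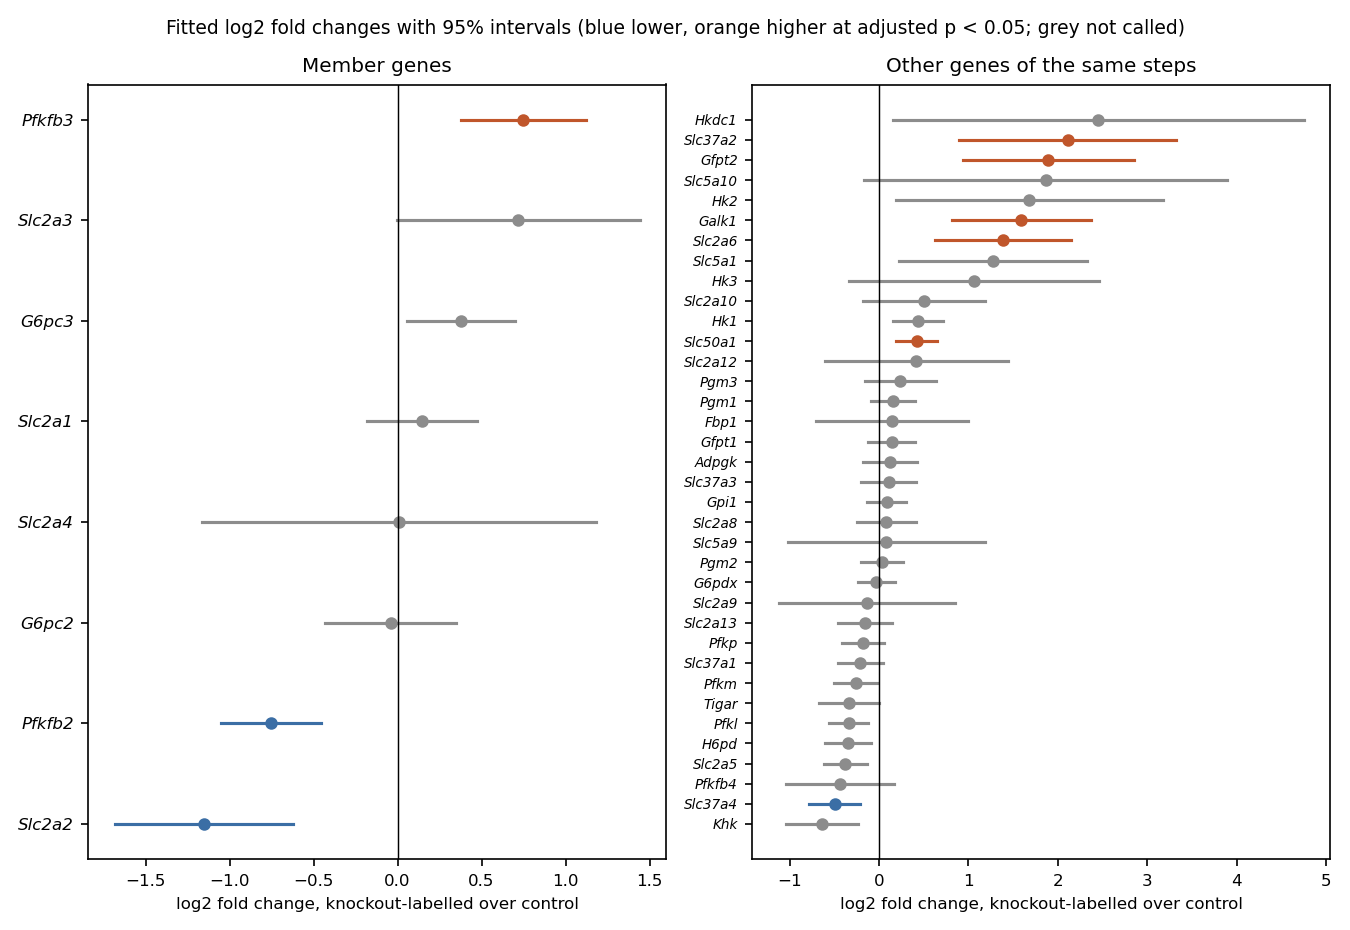
Fitted log2 fold changes, knockout-labelled over control, with 95% intervals for the members (left) and the tested genes of the 3 further lists (right), coloured where edgeR's adjusted p was under 0.05. Slc2a2 and Pfkfb2 lie to the left of 0 and Pfkfb3 to the right, and the interval of Slc2a4 is the widest of the members.

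**Figure D2:**
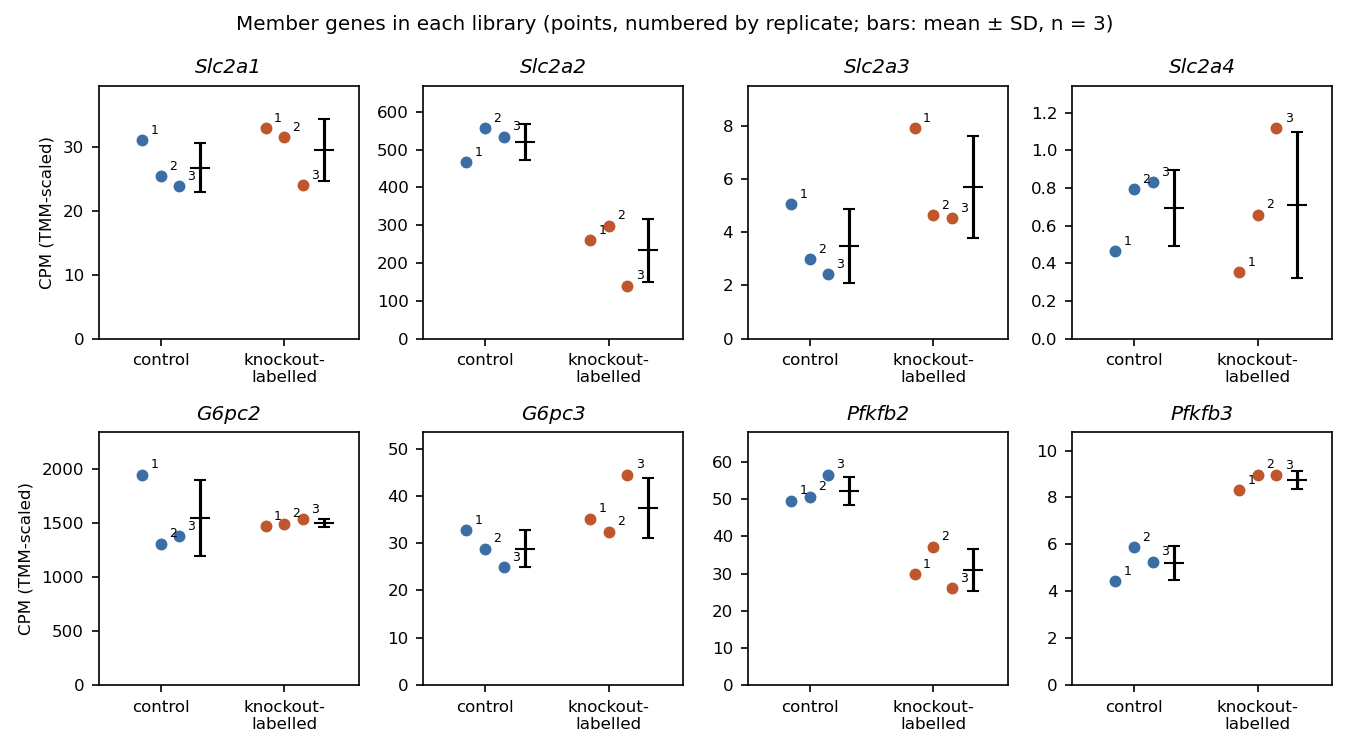
Level of each member gene in each library, in TMM-scaled CPM on axes that start at 0, with points numbered by replicate and bars for the mean ± SD of 3 libraries. The groups are apart for Slc2a2 (140 to 299 against 466 to 557 CPM), Pfkfb2 and Pfkfb3, and they overlap for the other 5 genes.

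Among the 4 transporter members, Slc2a2 was the most abundant and the only one called. The gene lies at chr3:28697903-28728360 of mm10 on the plus strand, with 11 exon blocks. Its levels were 466, 557 and 535 CPM in controls 1, 2 and 3, from 10079 to 13515 counts per library. In knockout-labelled replicates 1, 2 and 3 they were 261, 299 and 140 CPM, from 2758 to 6364 counts. All 3 knockout-labelled libraries lay below all 3 controls, and replicate 3 lay well below the other two. The fitted log2 fold change was −1.15 ± 0.24 (SE; 95% interval −1.68 to −0.62, adjusted p = 0.0284). Slc2a2 thus fell by 55.1%, and its log2 fold change ranked 62nd from the lowest among the 13736 tested genes. Without knockout-labelled replicate 3 the log2 fold change was −0.89 and still called (adjusted p = 0.0171), but the call was lost without control 2 (−1.11, adjusted p = 0.0944), control 3 (−1.15, 0.0696) or knockout-labelled replicate 1 (−1.24, 0.0787). With the β cell reference score as a covariate it was −1.18 (adjusted p = 0.00265), with the acinar score −1.08 (0.325), and with the macrophage score −2.71 (0.892). The summed acinar and macrophage markers had each separated the labels, so fits with either score, here and below, separate label and score poorly.

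Slc2a1 encodes GLUT1, the transporter that most tissues and blood vessels use for basal uptake. The gene lies at chr4:119108745-119137329 (plus strand, 10 exon blocks). It was measured at 31.1, 25.4 and 23.8 CPM in controls and at 33.0, 31.6 and 24.0 CPM in knockout-labelled libraries. The groups overlapped, and the fitted log2 fold change was 0.14 ± 0.15 (95% interval −0.18 to 0.47, adjusted p = 0.573). The interval excludes a fall of the size fitted for Slc2a2. Slc2a1 turned to −0.02 with the acinar score as a covariate.

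Slc2a3 encodes GLUT3, a high-affinity transporter best known from neurons and also made by blood cells. At chr6:122727809-122742745 (minus strand, 10 exon blocks), it had low counts, 61 to 180 per library, and it stood at 5.04, 3.0 and 2.41 CPM in controls and 7.92, 4.65 and 4.52 CPM in knockout-labelled libraries. Control 1 reached into the range of the knockout-labelled group, and the log2 fold change of 0.72 ± 0.32 was not called (95% interval −0.01 to 1.44, adjusted p = 0.192). Slc2a4, the gene of the insulin-responsive transporter GLUT4 of muscle and fat (chr11:69942286-69948190, minus strand, 11 exon blocks), was at the edge of detection with 8 to 22 counts per library. Its levels were 0.463, 0.792 and 0.831 CPM in controls and 0.352, 0.658 and 1.12 CPM in knockout-labelled libraries. The 95% interval of its log2 fold change (0.01 ± 0.53) ran from −1.16 to 1.18, so changes within that range were not excluded. The 6 muscle and fat markers summed to 8.42 to 10.96 CPM in controls against 14.0 to 15.6 CPM in knockout-labelled libraries. Ckm and Adipoq had no count in any library, Myh4 and Plin1 were too low to be tested, Acta1 was not called (3.79 and 3.82 CPM) and Fabp4, which endothelial cells and macrophages also make, rose by 0.87 ± 0.16 on the log2 scale (6.05 and 11.1 CPM, adjusted p = 0.021). Their part in the Slc2a4 value was not tested.

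Levels of different genes were compared per length, as RPKM (CPM per kilobase of summed exons). Slc2a2 made up 93.1%, 95.2% and 95.3% of the summed RPKM of the 4 transporter members in controls 1, 2 and 3, and 87.2%, 89.5% and 83.4% in knockout-labelled replicates 1, 2 and 3. The ratio of Slc2a2 to Slc2a1 RPKM was 15, 21.9 and 22.4 in controls and 7.91, 9.46 and 5.84 in knockout-labelled libraries. It was therefore lower in each knockout-labelled library than in each control, while Slc2a2 remained the leading member transporter in all 6. Per 1000 counts of Ins1 and Ins2 together, there were 1.01, 1.44 and 1.56 counts of Slc2a2 in the controls and, without overlap, 0.679, 0.821 and 0.339 in knockout-labelled replicates 1, 2 and 3. The summed level of the 4 members was 214 ± 16.7 RPKM in controls and 104 ± 34.1 RPKM in knockout-labelled libraries (SD, n = 3 each). These shares and ratios are descriptions and were not tested.

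G6pc2, the islet glucose-6-phosphatase (chr2:69211073-69227993, plus strand, 6 exon blocks), was the most abundant member and was not called. It was measured at 1945, 1307 and 1374 CPM in controls 1, 2 and 3 and at 1469, 1492 and 1535 CPM in knockout-labelled libraries. Control 1 was the highest of the 6 and control 2 the lowest, with the knockout-labelled libraries close together between them. The log2 fold change was −0.04 ± 0.17 (95% interval −0.43 to 0.35, adjusted p = 0.91), and it was 0.16 without control 1. The interval excludes a fall as large as the one fitted for Slc2a2. Its RPKM exceeded that of Slc2a2 by a ratio of 4.99, 2.81 and 3.08 in controls and of 6.74, 5.97 and 13.1 in knockout-labelled libraries, with no overlap between the groups. The difference between the G6pc2 and Slc2a2 responses was not tested.

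G6pc3 encodes the glucose-6-phosphatase catalytic subunit found in most tissues, which is needed by neutrophils. Its locus is chr11:102189699-102194081 (plus strand, 6 exon blocks). It stood at 32.7, 28.8 and 24.9 CPM in controls and 35.2, 32.4 and 44.5 CPM in knockout-labelled libraries. The highest control lay just above the lowest knockout-labelled library, replicate 2. Its log2 fold change of 0.38 ± 0.14 had a 95% interval from 0.05 to 0.70 and an unadjusted p of 0.0261, but did not pass over all genes (adjusted p = 0.133). The ratio of G6pc2 to G6pc3 RPKM was 42.8, 32.6 and 39.7 in controls and 30.0, 33.1 and 24.8 in knockout-labelled libraries, ranges that overlapped.

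Pfkfb2 fell and Pfkfb3 rose, so the phosphofructokinase-2 members moved in opposite directions. Pfkfb2, known as the heart form and also made in islets (chr1:130689043-130729253, minus strand, 18 exon blocks), was at 49.7, 50.7 and 56.6 CPM in controls 1, 2 and 3 and at 29.8, 37.3 and 26.1 CPM in knockout-labelled replicates 1, 2 and 3. The groups did not overlap, and replicate 3 was again the lowest library. The log2 fold change was −0.75 ± 0.13 (95% interval −1.05 to −0.45, adjusted p = 0.0197), so Pfkfb2 fell by 40.7%. Its exons share 154 bp, or 1.6% of the gene model, with Yod1 on the other strand, which was not called (log2 fold change −0.31 ± 0.14, adjusted p = 0.189). The call was lost without control 2 (adjusted p = 0.0672), control 3 (0.0577) or knockout-labelled replicate 1 (0.0764), with log2 fold changes between −0.92 and −0.65 over all 6 libraries left out in turn. With the acinar score as a covariate the value was −0.63 (adjusted p = 0.325), with the macrophage score −2.50 (0.892) and with the β cell reference score −0.74 (0.00617).

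Pfkfb3, the inducible form with high kinase activity that is known from dividing cells, endothelium and hypoxia, was a gene of low level in these islets (chr2:11471431-11553929, minus strand, 19 exon blocks). It was measured at 4.44, 5.88 and 5.26 CPM in controls and at 8.32, 8.98 and 8.94 CPM in knockout-labelled libraries, from 96 to 191 counts per library. Each knockout-labelled library lay above each control, and the 3 of them were close together. The log2 fold change was 0.75 ± 0.17 (95% interval 0.38 to 1.12, adjusted p = 0.0339), a rise of 68.1%. The call was the least secure of the 3: it was lost without any 1 of the 6 libraries, with adjusted p from 0.0565 to 0.0971 and log2 fold changes from 0.65 to 0.83. With the macrophage score as a covariate the value was 0.33 (adjusted p = 0.976), and with the acinar score 0.77 (0.371). The endothelial markers Pecam1 (0.74 ± 0.11), Tek (0.54 ± 0.13) and Vwf (1.70 ± 0.26) rose in the same libraries (log2 fold change ± SE), and Cdh5, Kdr and Plvap were not called; their part in the Pfkfb3 value was not tested.

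**Figure D3:**
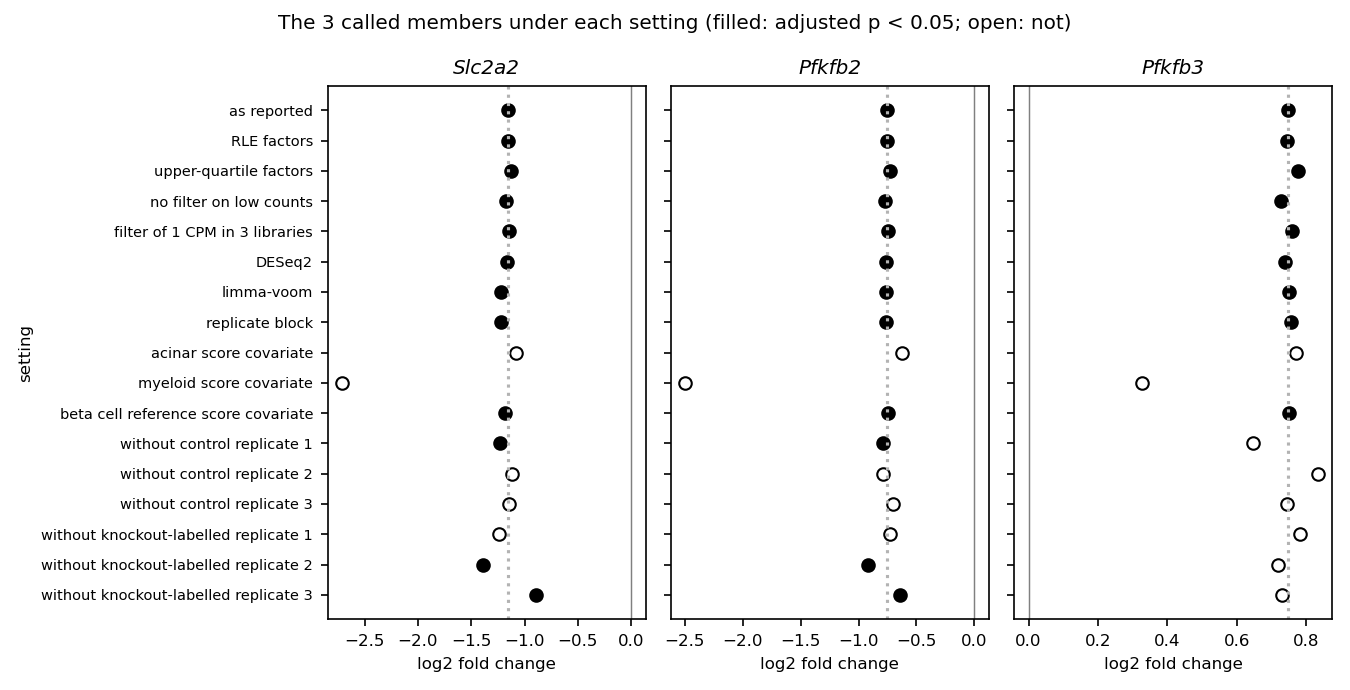
Log2 fold change of the 3 called members as reported and under each of 16 other settings, filled where the adjusted p was under 0.05 and with a dotted line at the reported value. All points keep the sign of the reported value, and filled points number 11 for Slc2a2, 11 for Pfkfb2 and 8 for Pfkfb3 among the 16.

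Per length, Pfkfb2 exceeded Pfkfb3 by a ratio of 6.14, 4.74 and 5.91 in controls and of 1.97, 2.28 and 1.6 in knockout-labelled libraries. Pfkfb2 made up 67.3% ± 0.763 of the summed RPKM of Pfkfb1, Pfkfb2, Pfkfb3 and Pfkfb4 in controls and 53.6% ± 7.05 in knockout-labelled libraries (SD, n = 3 each). Pfkfb2 thus stayed above Pfkfb3 in each library, at a smaller margin in the knockout-labelled ones.

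**Figure D4:**
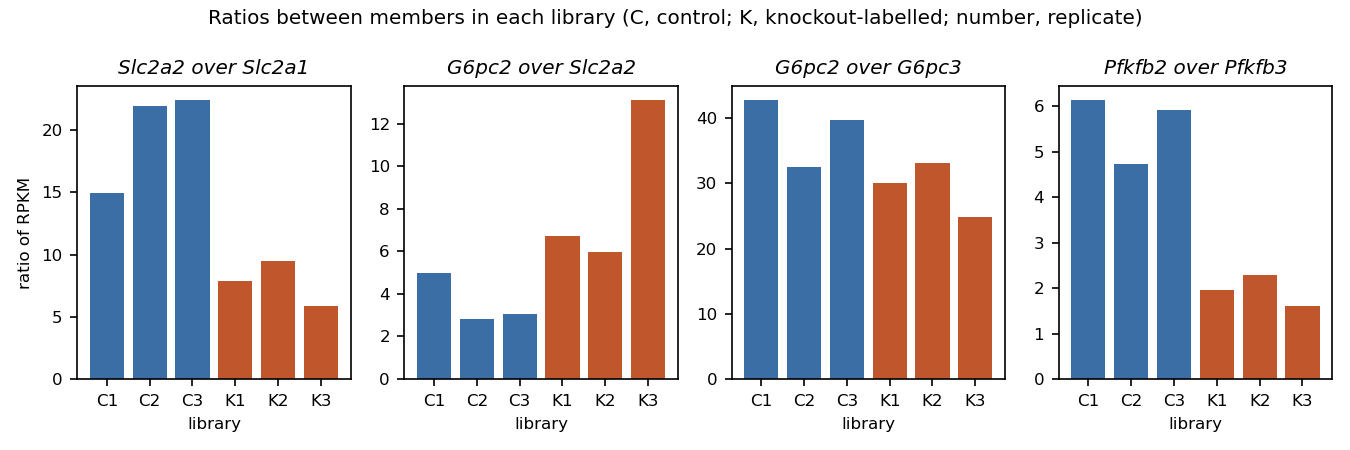
Ratios of RPKM between pairs of members in each library, with blue bars for controls (C) and orange bars for knockout-labelled libraries (K), on linear axes from 0. The ratios of Slc2a2 to Slc2a1, G6pc2 to Slc2a2 and Pfkfb2 to Pfkfb3 separate the labels, and the ratio of G6pc2 to G6pc3 does not.

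Ordered by mean RPKM in the controls, the members ran from G6pc2 (718 ± 163) through Slc2a2 (202 ± 18.3), G6pc3 (18.7 ± 2.53), Slc2a1 (10.4 ± 1.49), Pfkfb2 (5.44 ± 0.391), Pfkfb3 (0.983 ± 0.136) and Slc2a3 (0.88 ± 0.349) to Slc2a4 (0.246 ± 0.0716; SD, n = 3 each). In the knockout-labelled libraries the order of the means was the same: 698 ± 15.6, 90.8 ± 32.3, 24.2 ± 4.10, 11.5 ± 1.88, 3.23 ± 0.591, 1.65 ± 0.0701, 1.44 ± 0.487 and 0.251 ± 0.137 RPKM. Pfkfb3 and Slc2a3 did not differ beyond their spread in either group; the other neighbours did not overlap.

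Genes whose level followed the called members most closely were found by Pearson's r of log2 CPM over the 6 libraries, among genes with a mean of at least 10 CPM. For Slc2a2 these included Morn4 (r = 0.997), Pcx (0.997), Cryl1 (0.997) and Rab11fip1 (0.995). Of them Pcx (log2 fold change −0.50 ± 0.13) and Cryl1 (−1.12 ± 0.24) fell, and Morn4 (−0.44 ± 0.14) and Rab11fip1 (−0.37 ± 0.12) were not called. Pcx encodes pyruvate carboxylase, which feeds pyruvate into the citric acid cycle. Closest to Pfkfb2 were Prox1 (r = 0.997), Osbpl1a (0.996) and Cdh1 (0.996), and closest to Pfkfb3 were Scarb1 (0.989), Btf3 (0.987) and Ybx1 (0.985). These are the extremes of 7612 or more coefficients over libraries that share a split by label, and are descriptions only.

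**Figure D5:**
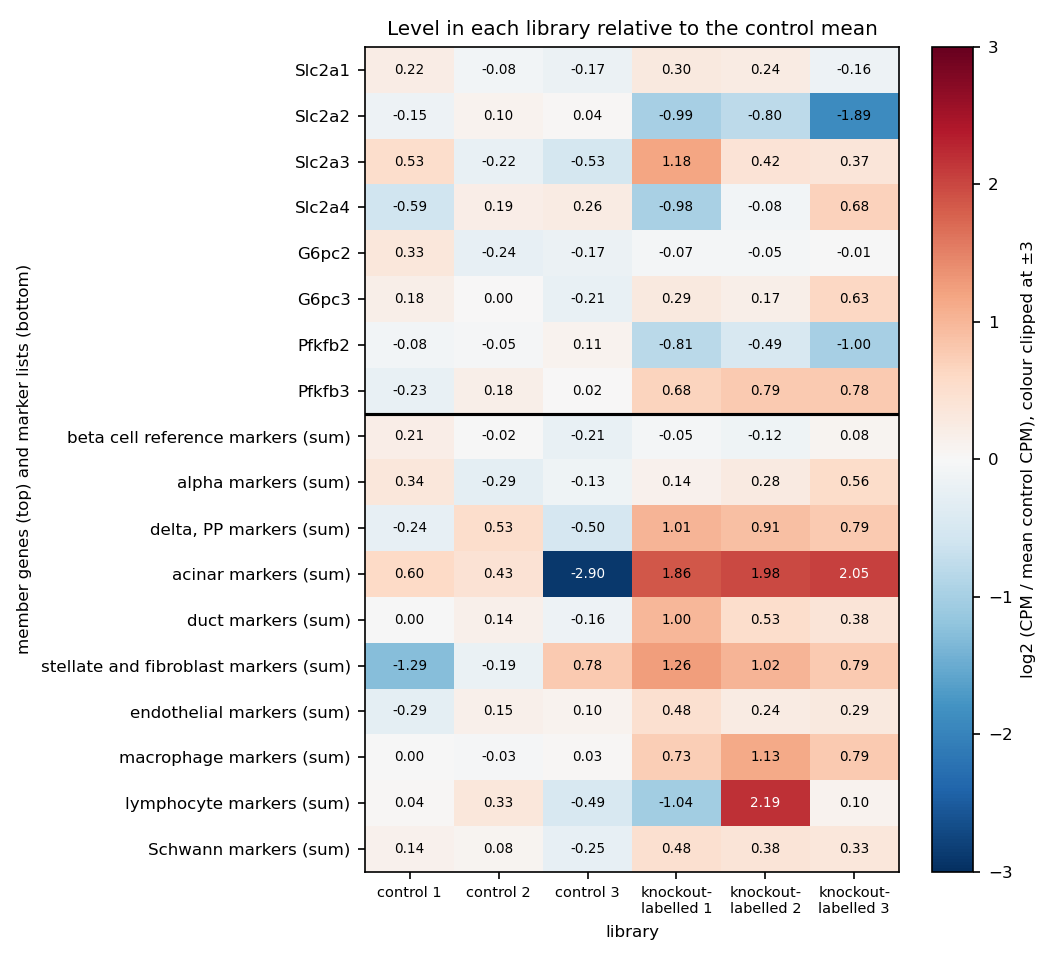
Heat map of the level of each member (top) and of summed cell type markers (bottom) in each library, as log2 of CPM over the control mean. Each cell holds its value, and colours are clipped at ±3. The red cell list and the muscle and fat list are not shown. Slc2a2 and Pfkfb2 are lowest in knockout-labelled replicate 3 (−1.89 and −1.0). There the β cell reference sum, mostly of Ins1 and Ins2, is at 0.08 and the acinar sum at 2.05.

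Other genes of the same steps were read from 3 lists. Over all tested genes, 4.14% were called higher and 2.63% lower, and the groups lay apart for 32.1%. Of 18 other hexose and glucose-6-phosphate transporters, 15 were tested, 3 were higher, 1 was lower and 11 were not called, with a median log2 fold change of 0.11 beside 0.01 over all tested genes. The one that fell was Slc37a4, which encodes the transporter that carries glucose-6-phosphate to the glucose-6-phosphatase site in the endoplasmic reticulum. Slc37a4 went from 86.1 ± 8.43 to 61.2 ± 9.31 CPM, which is −0.49 ± 0.13 on the log2 scale (adjusted p = 0.0492), with controls at 80.5, 82.0 and 95.8 CPM and knockout-labelled libraries at 50.6, 68.1 and 64.8 CPM. The 3 that rose were the sugar or sugar phosphate transporter genes Slc2a6 (3.87 ± 1.10 to 10.2 ± 4.88 CPM, adjusted p = 0.0428), Slc37a2 (0.542 ± 0.495 to 2.39 ± 0.159 CPM, 0.049) and Slc50a1 (41.3 ± 2.48 to 55.3 ± 4.83 CPM, 0.0404). With 4, 8 and 28 counts in controls 1, 2 and 3, Slc37a2 would not have passed the filter on its controls alone, so its place among the tested genes rests on the group where it is high; its log2 fold change was 2.11 and, without control 3, 3.15. Slc2a6 and Slc37a2 are known from macrophages, whose summed markers were higher in the same libraries; their part in these values was not tested.

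Slc2a5, the gene of the fructose transporter GLUT5, was no member but came closest to Slc2a2 per length among the SLC2A genes read, with 100.1 ± 5.48 RPKM in controls and 77.0 ± 4.71 RPKM in knockout-labelled libraries. In knockout-labelled replicate 3 it exceeded Slc2a2, at 82.1 against 54.5 RPKM; in the other 5 libraries Slc2a2 was higher. It stood at 295, 328 and 307 CPM in controls and 225, 236 and 254 CPM in knockout-labelled libraries, with no overlap. Slc2a5 was not called by edgeR (log2 fold change −0.38 ± 0.11, adjusted p = 0.0618), but was called lower by DESeq2 (0.00245), by limma-voom (0.0429), with no filter (0.0488) and with the β cell reference covariate (0.045). Over the whole list of other transporters, DESeq2 called 4 higher and 2 lower, and limma-voom 2 higher and 2 lower. Slc37a1, Slc37a3 and Slc2a8, the next by level among the uncalled genes of the list, had adjusted p from 0.268 to 0.767.

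Among 16 genes of hexose phosphorylation and glucose-6-phosphate use, 15 were tested, 2 rose and 13 were not called, with a median log2 fold change of 0.16. None fell by edgeR, where 5 positive and 2 negative genes had an unadjusted p under 0.05. DESeq2 called 2 higher and 1 lower, and limma-voom 2 higher and 0 lower. Galk1, the galactose kinase, rose from 0.959 ± 0.0721 to 2.90 ± 0.857 CPM, a log2 fold change of 1.59 ± 0.35 (adjusted p = 0.0325). Its model shares 55 bp, or 3.65% of its length, with Itgb4, which also rose (1.38 ± 0.30). Gfpt2, an enzyme at the entry of the hexosamine pathway, rose from 0.80 ± 0.352 to 3.0 ± 0.96 CPM (1.89 ± 0.43, adjusted p = 0.0347), and with 9, 21 and 28 control counts it too passed the filter through the knockout-labelled group, while its far more abundant relative Gfpt1 was at 237 ± 25.1 and 262 ± 15.8 CPM (0.14 ± 0.12, adjusted p = 0.475). Gpi1, which converts glucose-6-phosphate to fructose-6-phosphate (adjusted p = 0.62), Pgm2 (0.891) and the fructose kinase Khk (−0.64 ± 0.18, adjusted p = 0.0601) were not called. Khk was called lower in 4 of the 16 other settings. These were DESeq2 (adjusted p = 0.0177), no filter (0.0300), the β cell reference covariate (0.0314) and the fit without control 1 (0.0336). The hexokinases Hk1, Hk2 and Hk3, with high affinity for glucose, had positive log2 fold changes of 0.44 ± 0.13, 1.68 ± 0.67 and 1.07 ± 0.63. None was called by edgeR (adjusted p of 0.0654, 0.147 and 0.31). With controls at 0.445 ± 0.448 and 0.245 ± 0.174 CPM, Hk2 and Hk3 would not have passed the filter on their controls alone. The positive signs of Hk2 and Hk3 are therefore no separate result. Hk1 was at 14.1 ± 0.563 CPM in controls and 19.0 ± 2.67 CPM in knockout-labelled libraries, without overlap (unadjusted p = 0.00646 by edgeR). These hexokinases were chosen after their values were seen, and Hk3 shares 34 bp of exons, or 1.04% of its model, with Unc5a.

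Of 8 other genes of the phosphofructokinase step, 6 were tested and 0 were called in either direction by edgeR (3 negative at an unadjusted p under 0.05) or limma-voom, while DESeq2 called 1 lower. The median log2 fold change was −0.30. The subunits of phosphofructokinase-1, the enzyme that the product of phosphofructokinase-2 activates, all had negative values: Pfkl −0.34 ± 0.10 (adjusted p = 0.0603), Pfkm −0.26 ± 0.11 (0.16) and Pfkp −0.18 ± 0.11 (0.307, with 276 bp shared with Pitrm1). Pfkl was at 63.5, 72.1 and 72.1 CPM in controls and 54.2, 57.8 and 51.9 CPM in knockout-labelled libraries, without overlap. It was called lower in 3 of the 16 other settings: DESeq2 (adjusted p = 0.0279), no filter (0.0484) and the β cell reference covariate (0.0447). Fbp1, a fructose bisphosphatase, was at 7.18 ± 1.68 and 8.0 ± 5.15 CPM (0.15 ± 0.38, adjusted p = 0.844). The 6 calls in the 3 lists were each lost in at least 4 of the 6 fits that left out 1 library. They were also lost in both fits with the acinar or the macrophage score, whose summed markers had themselves separated the labels. Slc50a1 (adjusted p = 0.0612) and Gfpt2 (0.058) were also lost with the replicate block, Slc2a6 with limma-voom (0.0635) and Slc37a4 with upper-quartile factors (0.0568).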

How the data were processed

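Libraries were made from 3 control and 3 knockout-labelled islet samples; tools listed in the submitters' processing notes are STAR (2.4.2a), Subread (1.5.0) with featureCounts, and edgeR, on mm10; annotation, strand and multi-mapping settings were not given in the sources used here. Values in the deposited table are raw whole-number counts per gene, per the file headers, beside the summed exon length in bp. The labels' protocols give poly-dT priming and a low-input kit, which can add noise for rare transcripts. In R 4.3.3, edgeR 4.0.16 was run with TMM factors, its default filter by group and quasi-likelihood tests on the label as the only term; adjusted p-values are Benjamini-Hochberg values over all 13736 tested genes. CPM and RPKM use TMM-scaled library sizes, and standard errors come from the fold change and the F value. The other settings were RLE and upper-quartile factors, 2 other filters, DESeq2 1.42.0, limma-voom (limma 3.58.1), a replicate block, 3 marker scores as covariates (mean log2 CPM of a list) and each library left out. Shared exon bases came from GenomicRanges 1.54.1 on either strand; without strand, overlapping genes cannot be separated.

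The members, lists and tests were chosen with earlier results of these data known. Named genes were all members, each called gene of 3 pathway lists, up to 4 others per list by RPKM, and the genes closest in pattern (5 for Slc2a2, 3 for each other called member, leaving out predicted genes); 1 gene that the rule names is not reported here. Replicates differed by more than counting noise (chi-square per degree of freedom of 11.2 or more). The procedure was tested on simulated counts, drawn gene by gene with planted fold changes. They held no shift in cell types and no effect shared by a library, so that test does not bear on either. Coordinates are mm10.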

Additional observations from a re-analysis of the deposited data

How the results depend on the processing

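The count of called members stayed at 3 under RLE and upper-quartile factors, both other filters, DESeq2, limma-voom, the replicate block (3) and the β cell reference covariate. It was 0 in edgeR with the acinar covariate (3 members at an unadjusted p under 0.05) and 0 with the macrophage (myeloid) covariate (1 member), and 0 to 2 with libraries left out. Over all genes, 929 calls became 1413 with no filter, 1658 with DESeq2, 0 with the acinar covariate (1495 at an unadjusted p under 0.05), 0 with the myeloid covariate (752), and 64 to 968 with libraries left out, lowest without knockout-labelled replicate 1 (64) and control 2 (99). The replicate numbers did not pair the libraries (same-number correlations of deviations from −0.04 to 0.05), and the block gave 826 calls. The summed acinar and macrophage markers each separated the labels, so fits with either score separate label and score poorly. The cause of the changed counts was not tested.

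Signs turned only for uncalled genes and for Slc37a2. The log2 fold change of Slc2a4 was −0.00766 with no filter, −0.115 with limma-voom, −0.0400 with the replicate block, −2.09 with the myeloid and −0.12 with the β cell covariate, and −0.47 to 0.34 with libraries left out. With the myeloid covariate G6pc2 was at 0.37, Gfpt1 at −0.11, Pgm2 at −0.22, Slc37a2 at −0.15 and Fbp1 at −0.35; Fbp1 was at −0.0428 with limma-voom and −0.0854 with the β cell covariate, and Slc2a1 at −0.0195 with the acinar covariate. With libraries left out the ranges were −0.16 to 0.16 for G6pc2, −0.51 to 0.46 for Fbp1, −0.0634 to 0.0997 for Pgm2, −0.0421 to 0.183 for Slc2a8 and −0.0450 to 0.221 for Slc37a3. Genes under about 20 counts per library, such as Slc2a4, are limited by depth.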
